A study of Mus musculus with 14 samples.

Results

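Solute carriers are the membrane proteins that move amino acids, sugars, nucleotides, ions and vitamins across the plasma membrane and organelle membranes, and the transcripts of the genes that full-grown mouse oocytes express are described here. Members were taken by gene symbol, as Slc followed by a family number, a letter and a member number, without Slc4a3 and the zinc families Slc30 and Slc39, and had to reach a mean of at least 1 CPM (counts scaled to a common library total) over all 14 libraries. Of 336 matching genes 200 were members, 136 lay under the level and 6 of these had no count in any library. The genes with a symbol numbered 20337, of which 11518 reached the same level. Where a gene had several transcripts, as 48 members did, the one with the highest mean count stood for it. The level that chose the members is therefore a description and supports no test.

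RNA-seq was performed on full-grown oocytes with an intact germinal vesicle (GV), arrested in prophase of meiosis I, from females aged 4 to 6 weeks and primed with equine chorionic gonadotropin. The 5 groups were Ago2 fl/fl, with both Ago2 alleles floxed and intact (3 libraries), Ago2 ADH (3 libraries), Ago2 null (2 libraries), Dicer WT (3 libraries) and Dicer KO, an oocyte-specific Dicer null (3 libraries). Ago2 ADH females were Ago2 fl/ADH; Cre/+, so that after excision of the floxed allele the oocyte keeps 1 Ago2 allele, whose product binds small RNAs but cannot cleave RNA. Zp3-Cre, expressed in growing oocytes, excised the floxed alleles, and Ago2 null females came from the same crosses. The Ago2 fl/fl libraries are labelled wild-type and no Cre is given for them, so Cre and genotype cannot be told apart. The background was mostly C57BL6, from a cross of several transgenic strains. Each library pooled 20 oocytes, freed of cumulus cells, from 3 mice by the series description and from 3 or 4 by the study's methods. By the lane tags of the deposited tables each Ago2 genotype ran in a lane of its own and each Dicer library in another, so lane and Ago2 genotype cannot be told apart.

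The depth was 29380403 to 58285057 counts per library, and members held 0.544% to 0.620% of them. Levels are given as CPM after TMM normalisation over the 14 libraries. Ago2 was at 24.0 to 25.5 CPM in Ago2 fl/fl, 12.4 to 13.7 in Ago2 ADH and 5.30 to 7.17 in Ago2 null libraries. Dicer1 was at 745 to 779 CPM in Dicer WT and 1679 to 1943 in the libraries labelled Dicer KO. Both values count the whole transcript, exons outside the deletion included, so the Dicer1 level does not check that label. All 12 oocyte markers were detected, with a summed 11364 to 19662 CPM. Of 17 cumulus and granulosa markers 5 reached a mean of 1 CPM over the 14 libraries and were counted in every library. These were Cyp19a1 at 37.0 CPM, Nr5a2 at 33.6, Kitl at 4.87, Cyp11a1 at 1.77 and Star at 1.22. Amh, Foxl2 and Ptx3 had no count in 5, 8 and 13 libraries. The sum of the 17 was 82.3 to 89.1 CPM in Ago2 fl/fl, 71.0 to 75.6 in Ago2 ADH, 61.3 to 66.5 in Ago2 null, 99.5 to 108 in Dicer WT and 79.7 to 85.5 in Dicer KO. None of the 6 theca and stroma markers and none of the 5 blood and immune markers found reached 1 CPM, and of 3 endothelial markers Pecam1 alone did. Alignments that were not unique enter no gene's count, and as up to 100 per read were kept their tally need not be a number of reads. The tally was 0.572 per counted read in Ago2 fl/fl, 1.61 in Ago2 ADH and in Ago2 null, 0.458 in Dicer WT and 1.03 in Dicer KO. The part of these differences in the results on carriers was not tested.

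The growing oocyte depends on its carriers and on those of the granulosa cells around it. It takes up pyruvate in place of glucose as its main fuel, and receives amino acids and nucleosides through gap junctions with cumulus cells. GLYT1 (Slc6a9) carries glycine and Slc6a6 taurine, substrates that also act as osmolytes. Bicarbonate and sodium-proton exchangers of the Slc4 and Slc9 families regulate the pH of cells, and the Slc25 family links the cytosol with the mitochondria that supply ATP. AGO2 and DICER act in the RNA interference pathway, DICER by cutting double-stranded RNA into small RNAs and AGO2 by cleaving their targets.

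Promoter sequence was available for 155 of the 200 members, in 205 windows of 250 bases before a start site (RefSeq, GRCm38.p6). The 4 windows printed belong to members that changed in the same direction in all 3 mutants and are shown because they hold a match to a searched motif, which is in capitals. Slc22a14 (chr9:119190396-119190645, minus strand) and Slc17a5 (chr9:78588046-78588295, minus strand) rose, and Slc22a22 (chr15:57265162-57265411, minus strand) and Slc25a13 (chr6:6217174-6217423, minus strand) fell. RefSeq lists a second start for Slc22a22, and which start the oocyte uses was not measured.
Slc22a14: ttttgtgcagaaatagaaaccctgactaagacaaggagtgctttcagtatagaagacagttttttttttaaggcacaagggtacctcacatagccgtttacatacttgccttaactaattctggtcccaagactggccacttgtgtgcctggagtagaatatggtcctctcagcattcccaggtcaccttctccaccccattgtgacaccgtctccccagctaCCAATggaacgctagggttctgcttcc
Slc17a5: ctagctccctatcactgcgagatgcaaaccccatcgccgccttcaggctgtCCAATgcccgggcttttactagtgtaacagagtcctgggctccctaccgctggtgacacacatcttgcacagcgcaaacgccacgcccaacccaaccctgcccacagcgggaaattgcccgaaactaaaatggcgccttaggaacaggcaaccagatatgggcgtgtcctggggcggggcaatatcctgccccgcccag
Slc22a22: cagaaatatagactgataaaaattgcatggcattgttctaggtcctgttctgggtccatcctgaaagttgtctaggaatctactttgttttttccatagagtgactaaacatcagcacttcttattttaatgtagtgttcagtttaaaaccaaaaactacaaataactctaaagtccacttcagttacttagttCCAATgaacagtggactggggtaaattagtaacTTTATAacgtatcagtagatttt
Slc25a13: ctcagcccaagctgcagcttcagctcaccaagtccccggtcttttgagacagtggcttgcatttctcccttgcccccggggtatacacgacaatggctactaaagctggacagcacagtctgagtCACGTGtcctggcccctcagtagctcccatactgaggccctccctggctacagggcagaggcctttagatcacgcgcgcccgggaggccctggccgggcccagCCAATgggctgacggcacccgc

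A TATA box was searched as the letters TATAAA on both strands. It stood in 12.4% of all 32851 promoter windows, in 6.89% of those of genes at 1 CPM or more and in 7.32% of the members' windows. Of 39 windows of members that rose in both Ago2 ADH and Dicer KO 1 held it (2.56%), and of 23 windows of members that fell in both 6 did (26.1%). A CCAAT box, the letters CCAAT on either strand, stood in 33.8% of all windows, in 28.3% of the members', in 35.7% of those of genes at 1 CPM or more, in 17.9% of those of risen and 47.8% of those of fallen members. An E-box, the palindrome CACGTG, stood in 6.02% of all windows, in 8.40% of those of genes at 1 CPM or more, in 13.7% of the members', in 5.13% of those of risen and 17.4% of those of fallen members. An amino acid response element, searched as TGATGNAAT, stood in 0.816% of all windows, in 0.469% of those of genes at 1 CPM or more and in 0.976% of the members', and in none of those of risen or fallen members. Of the windows printed, that of Slc22a22 holds a TATA box, read on the opposite strand, and a CCAAT box, that of Slc25a13 an E-box and a CCAAT box, and the other two a CCAAT box each. The sets of risen and fallen members are small and were chosen by these data, and a match to the letters is not a bound site.

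In control oocytes the carriers were expressed over a wide range. Per kilobase of transcript, the median member was at 2.80 CPM per kb over the 6 control libraries, with quartiles of 0.716 and 7.70, against a median of 6.01 over all genes at 1 CPM or more. Of the members 39 exceeded 10 CPM per kb and 63 lay under 1. Slc45a3, a proton-coupled sugar carrier of the Slc45 family, was by far the most abundant at 303 CPM per kb, the 98.9th percentile of all genes at 1 CPM or more, and held 17.0% of the members' CPM in controls. Slc25a5, the ADP/ATP carrier of the inner mitochondrial membrane also called ANT2, was next at 80.4 CPM per kb.

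Amino acid carriers and mitochondrial carriers filled most of the places after it. Slc7a2, which imports arginine and lysine, was at 59.6 CPM per kb, Slc7a11, the cystine-glutamate exchanger, at 45.1, and Slc3a2, the heavy chain that Slc7 light chains need at the surface, at 43.5. Slc25a31, an ADP/ATP carrier best known from the testis, was at 52.6 CPM per kb, the peroxisomal carrier Slc25a17 at 50.6 and the ornithine carrier Slc25a15 at 50.5. The choline carrier Slc44a2 was at 41.4 CPM per kb and Slc23a2, which imports ascorbate, at 40.3. From Slc7a2 to Slc23a2 the control libraries of neighbours in this order overlap. Of these 10 genes Slc45a3 and Slc25a17 lay furthest apart between the control groups. Slc45a3 was at 1377, 1233 and 1181 CPM in Ago2 fl/fl and 673, 689 and 687 in Dicer WT, and Slc25a17 at 71.6, 58.9 and 55.3 against 108, 102 and 128. Over all members the median absolute log2 difference between the control groups was 0.29, and 9 members were over 2-fold apart.

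**Figure D1:**
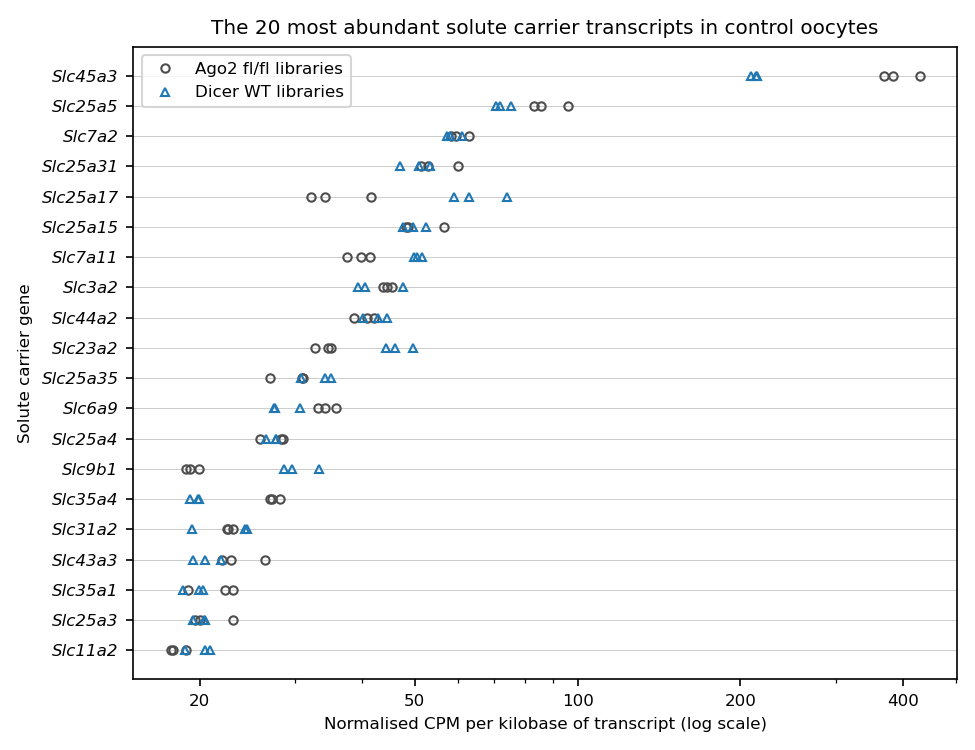
The 20 carriers with the highest level in control oocytes, as TMM-normalised CPM per kilobase of transcript on a log axis, with 1 point for each of the 3 Ago2 fl/fl libraries (circles) and the 3 Dicer WT libraries (triangles). Slc45a3 lies far to the right in every control library, at a mean of 303, and the next gene, Slc25a5, at 80.4.

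A set of carriers known from oocytes, cumulus cells or embryos was below the level. The monocarboxylate carrier Slc16a3 was at a mean of 0.134 CPM over the 14 libraries, the glucose carriers Slc2a3 and Slc2a8 at 0.158 and 0.688, the glutamine carrier Slc38a3 at 0.077, the sodium-calcium exchanger Slc8a1 at 0.437 and the nucleoside carrier Slc29a1 at 0.264. Just inside the level lay Slc6a14 at 1.01 CPM, Slc45a2 and Slc22a13 at 1.02, Slc16a4 at 1.04 and Slc25a27 at 1.05. Just outside lay Slc66a1 at 0.991, Slc10a4 at 0.896, Slc37a4 at 0.887, Slc2a5 at 0.757 and Slc25a24 at 0.752. Of the members 162 averaged 1 CPM or more in each of the 5 groups, and 20 averaged less in Ago2 fl/fl and 16 in Dicer WT, so that some of those entered the set only because of a group in which they were high.

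The comparisons of mutant and control oocytes ask which transcripts change when AGO2 cannot cleave RNA, when AGO2 is missing and when DICER is missing. In Ago2 ADH oocytes 54 members were higher and 37 lower than in Ago2 fl/fl at a false discovery rate of 1% (edgeR's quasi-likelihood test, Benjamini-Hochberg adjustment over all transcripts tested). All 200 were tested and 45.5% were called, against 40.7% of all transcripts tested (20.5% higher, 20.1% lower) and 45.9% of genes at 1 CPM or more (22.9% higher, 23.0% lower). The members' share was thus near that of other expressed genes, with 27% higher and 18.5% lower. In Ago2 null oocytes, compared with the same control libraries, 53 members were higher and 33 lower. This was 43% of 200, against 37.2% of all transcripts (18.1% higher, 19.1% lower) and 43.2% of genes at 1 CPM or more (21.0% higher, 22.3% lower). Without Ago2 null replicate 2 the number of members higher was 33. In Dicer KO oocytes 56 were higher and 34 lower than in Dicer WT. This was 45.2% of 199 tested, against 34.5% of all transcripts (16.7% higher, 17.8% lower) and 38.7% of genes at 1 CPM or more (18.5% higher, 20.2% lower). The median log2 fold change of the members was 0.04 in each comparison, against -0.01, -0.02 and -0.02 over genes at 1 CPM or more.

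More increases than decreases reached 2-fold. At least 2-fold increases among called members numbered 24 in Ago2 ADH, 19 in Ago2 null and 28 in Dicer KO, and at least 2-fold decreases 10, 12 and 12, of 200, 200 and 199 members tested. Over genes at 1 CPM or more such increases also outnumbered decreases, 8.93% against 3.87% in Ago2 ADH, 8.73% against 4.49% in Ago2 null and 8.26% against 4.81% in Dicer KO. The median log2 fold change of called members was 0.86, 0.76 and 1.00 for increases and -0.63, -0.78 and -0.77 for decreases. Of the 2-fold increases 13, 8 and 9 belonged to members with a mean under 1 CPM in the control, which the level rule could admit only through another group. Each value is a pool of oocytes, so fewer oocytes with a transcript and less of it in each cannot be told apart. Replicates are separate pools, and the p-values measure the spread between pools.

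The 36 amino acid and amine carriers were placed together by family number, and not all of them carry amino acids. Of these 13 rose and 6 fell in Ago2 ADH, and 11 rose and 5 fell in Ago2 null. In Dicer KO 15 rose and 3 fell. The median log2 fold changes were 0.19, 0.19 and 0.46. Of genes at 1 CPM or more, 22.9%, 21.0% and 18.5% were higher in these comparisons and 23.0%, 22.3% and 20.2% lower. These shares stand beside the counts of each group below. The largest increases among these carriers were in genes nearly silent in control oocytes. The level rule could admit such genes only through groups in which they were high. Their large increases are therefore a description, and the counts of risen carriers include them. Slc7a3, which imports arginine and lysine, had no count in the 3 Ago2 fl/fl libraries and was at 2.79, 2.60 and 1.41 CPM in Ago2 ADH and 1.36 and 2.15 in Ago2 null. Set against a floor of 3 counts per library it was at least 42.0-fold higher in Ago2 ADH and at least 32.5-fold higher in Ago2 null. It was at 0, 0.249 and 0.119 CPM in Dicer WT and 3.51, 3.91 and 3.25 in Dicer KO, a log2 fold change of 4.80 (SE 0.507, adjusted p = 2.91e-07). Slc1a5, the glutamine and neutral amino acid exchanger ASCT2, was at 0.155, 0.152 and 0.152 CPM in Ago2 fl/fl, 2.41, 2.69 and 2.40 in Ago2 ADH, and 2.52 and 2.11 in Ago2 null. In Dicer WT it was at 0.0517, 0.348 and 0.191 CPM and in Dicer KO at 2.60, 3.70 and 3.05. No mutant library overlapped a control, and its log2 fold changes were 4.06 (SE 0.327), 3.93 (SE 0.380) and 3.95 (SE 0.449).

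Slc6a14, a carrier of neutral and cationic amino acids, rose in both Ago2 mutants and was near the floor in the Dicer libraries. Its raw counts were 2, 4 and 3 in Ago2 fl/fl, 148, 147 and 144 in Ago2 ADH, 134 and 128 in Ago2 null, 0, 1 and 5 in Dicer WT and 2, 0 and 2 in Dicer KO. The log2 fold change was 5.76 in Ago2 ADH (SE 0.383, adjusted p = 3.50e-10) and 5.48 in Ago2 null (SE 0.448, adjusted p = 3.49e-08), and the gene had too few counts to be tested in the Dicer comparison. The level rule admitted Slc6a14 only through the Ago2 mutants, where it was high, so its rise there is a description. Slc38a2 (SNAT2, a sodium-coupled neutral amino acid carrier) was at 0.379, 0.169 and 0.571 CPM in Ago2 fl/fl and 1.31, 1.10 and 1.32 in Ago2 ADH, a log2 fold change of 1.79 (SE 0.409, adjusted p = 0.00122). In Ago2 null it was at 1.00 and 1.16 CPM, 1.57 (SE 0.483) with an adjusted p of 0.0128. In Dicer it went from 0.181, 0.174 and 0.358 to 2.50, 3.87 and 3.03 CPM, 3.69 (SE 0.390, adjusted p = 3.00e-07), and the difference of the Ago2 ADH and Dicer KO effects, -1.96 (SE 0.578), had an adjusted p of 0.0363.

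The amino acid carriers given here and expressed in controls had smaller changes, except that Slc1a1 fell by more in Ago2 ADH than Slc38a2 rose. Slc3a2 was at 82.6, 80.9 and 79.3 CPM in Ago2 fl/fl, 119, 124 and 119 in Ago2 ADH and 113 and 108 in Ago2 null, and at 71.5, 73.6 and 86.5 in Dicer WT against 139, 139 and 141 in Dicer KO. All mutant libraries lay above the controls, with log2 fold changes of 0.62, 0.48 and 0.85. Of its light chain partners, Slc7a5 (LAT1) had log2 fold changes of 0.27 (SE 0.0871, adjusted p = 0.0131), 0.22 (SE 0.0934, adjusted p = 0.0589) and 0.46 (SE 0.111, adjusted p = 0.00221), Slc7a6 passed the test in none, and Slc7a11 fell by 0.17 in Ago2 ADH and by 0.23 in Ago2 null and was at -0.02 (adjusted p = 0.781) in Dicer KO. Slc7a8 (LAT2), a light chain named with Slc7a7 after their values were seen, rose from 13.2, 15.0 and 14.5 CPM to 31.9, 32.9 and 26.5 in Ago2 ADH and 29.1 and 24.9 in Ago2 null, and from 11.8, 11.4 and 18.9 to 31.3, 35.2 and 33.1 in Dicer KO. No mutant library overlapped a control, and its log2 fold changes of 1.14, 0.96 and 1.24 were the largest among the light chains given here. Slc7a7 had log2 fold changes of -0.51 (adjusted p = 0.0147), -0.46 (adjusted p = 0.0251) and -0.62 (adjusted p = 0.0114) and passed the test in none. Slc6a6, the taurine carrier, fell from 80.3, 74.6 and 76.1 CPM to 57.9, 50.9 and 49.5 in Ago2 ADH and 46.9 and 39.7 in Ago2 null, and from 71.7, 74.5 and 86.4 to 46.8, 44.7 and 41.5 in Dicer KO. These are log2 fold changes of -0.50, -0.80 and -0.81. Slc1a1, the glutamate carrier EAAC1, fell by 2.02 (SE 0.228), 1.43 (SE 0.251) and 1.94 (SE 0.250) on the log2 scale. Of its exon bases 31.9% are shared with a gene on the other strand, and unstranded counting cannot tell which gene a read there came from. The summed level of the 36 genes was 1227 ± 21.1 CPM in Ago2 fl/fl, 1230 ± 48.6 in Ago2 ADH, 1206 ± 6.20 in Ago2 null, 1269 ± 27.9 in Dicer WT and 1585 ± 87.8 in Dicer KO (SD).

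**Figure D2:**
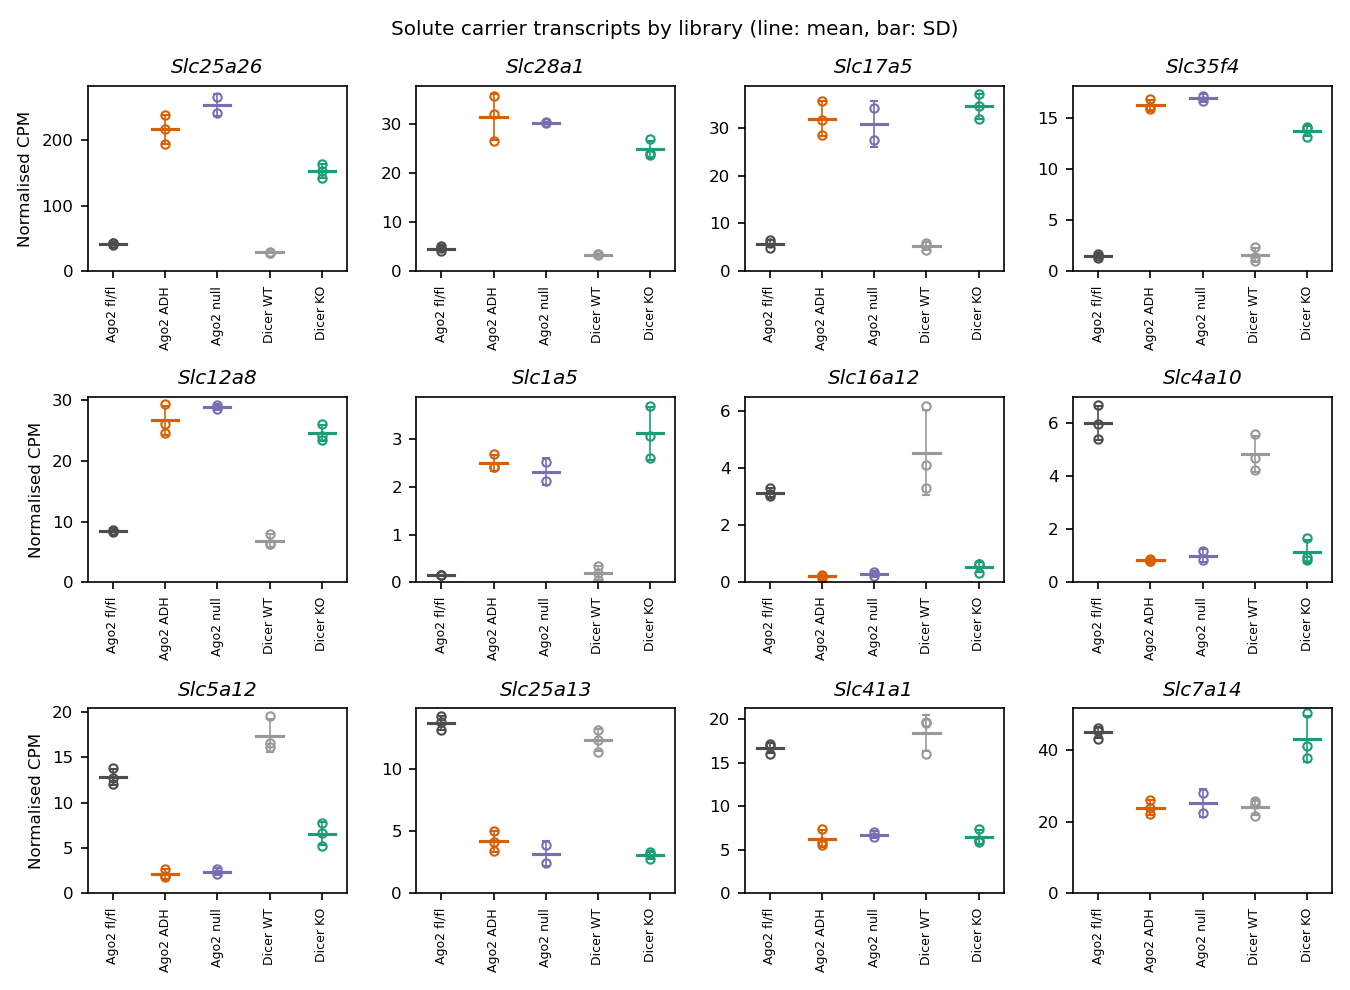
TMM-normalised CPM of 12 solute carrier transcripts in each of the 14 libraries, with the mean (line) and SD (bar) of each group of 2 or 3 libraries. In 6 genes all mutant libraries lie above the controls, in the next 5 all lie below, and Slc7a14 was lower in both Ago2 mutants and higher in Dicer KO.

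Of 33 mitochondrial carriers 9 rose and 2 fell in Ago2 ADH, 9 rose and 3 fell in Ago2 null, and 8 rose and 4 fell in Dicer KO. Slc25a26 (chr6:94500295-94604659), which brings S-adenosylmethionine into mitochondria, had the largest change of this family. It was at 43.6, 40.1 and 43.1 CPM in Ago2 fl/fl, 218, 239 and 195 in Ago2 ADH and 243 and 266 in Ago2 null. In Dicer WT it was at 29.6, 28.4 and 28.3 CPM and in Dicer KO at 164, 154 and 143. The mutant values were several times the control values in every library, with log2 fold changes of 2.41 (SE 0.0668, adjusted p = 5.64e-16), 2.62 (SE 0.0648, adjusted p = 6.17e-15) and 2.42 (SE 0.073, adjusted p = 4.63e-15). The ADP/ATP carrier Slc25a4 (ANT1) rose by 0.56, 0.52 and 0.82 on the log2 scale. Slc25a5 (ANT2) was at 119, 106 and 103 CPM in Ago2 fl/fl and 110, 109 and 109 in Ago2 ADH, which overlap, at 123 and 133 in Ago2 null, and rose from 87.5, 89.3 and 93.3 to 127, 123 and 124 in Dicer KO. Slc25a31, the other abundant ADP/ATP carrier, had log2 fold changes between -0.06 and 0.12 and passed no test.

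Slc25a13, the aspartate-glutamate carrier citrin of the malate-aspartate shuttle, fell from 13.9, 13.2 and 14.3 CPM in Ago2 fl/fl to 4.18, 5.06 and 3.38 in Ago2 ADH and 3.93 and 2.48 in Ago2 null. It fell from 11.4, 12.4 and 13.2 CPM in Dicer WT to 3.32, 3.16 and 2.74 in Dicer KO. The groups did not overlap, and the log2 fold changes were -1.66 (SE 0.135), -2.07 (SE 0.170) and -2.01 (SE 0.166). Slc25a35, named after its values were seen, fell by 0.71, 0.81 and 0.92, and shares 31.3% of its exon bases with Rangrf. The ornithine carrier Slc25a15 fell in Dicer KO by 0.51 (adjusted p = 3.87e-06) against -0.08 (adjusted p = 0.238) in Ago2 ADH, and the difference of the effects, 0.37, had an adjusted p of 0.0129. Slc25a17 had log2 fold changes between -0.14 and 0.02 and passed no test. The sum of the family was 999 ± 40.5 CPM in Ago2 fl/fl, 1159 ± 24.8 in Ago2 ADH, 1252 ± 32.3 in Ago2 null, 979 ± 15.7 in Dicer WT and 1136 ± 46.2 in Dicer KO. Slc25a26 alone rose by more than this sum did in Ago2 ADH, and made most of its rise in Ago2 null and Dicer KO.

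**Figure D3:**
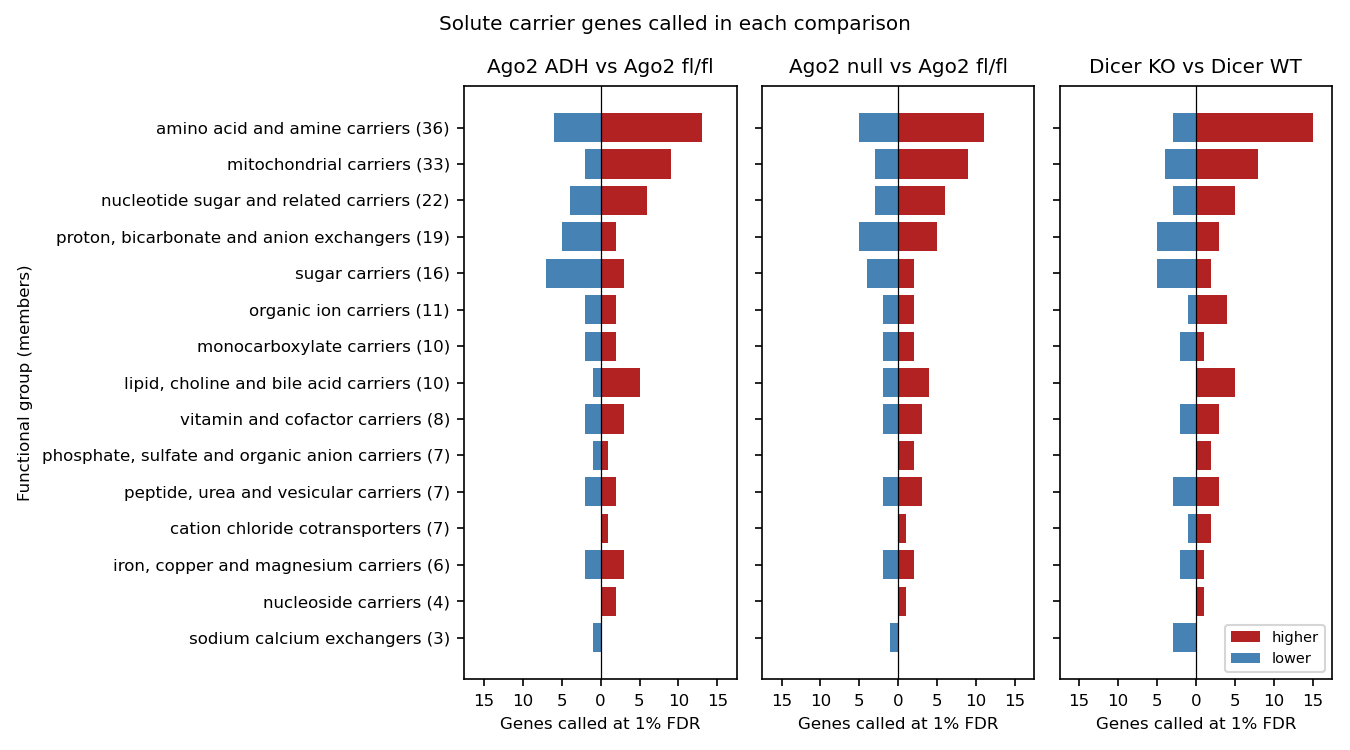
Number of carriers called higher (red, to the right) and lower (blue, to the left) at a false discovery rate of 1% in each comparison, by functional group, with the number of members of the group in parentheses. Amino acid and amine carriers, the largest group with 36 members, have the most increases by number, 13, 11 and 15. Of 10 lipid, choline and bile acid carriers 5, 4 and 5 rose. The 16 members of the families grouped as sugar carriers fell more often than they rose in Ago2 ADH, 7 against 3. Of genes at 1 CPM or more 22.9% were higher and 23.0% lower in Ago2 ADH.

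The 16 members grouped as sugar carriers were placed there by family number, and not all of them carry sugars. Of these 3 rose and 7 fell in Ago2 ADH, 2 rose and 4 fell in Ago2 null, and 2 rose and 5 fell in Dicer KO, with median log2 fold changes of -0.14, -0.11 and -0.31. Of the 5 members of the Slc2 family 4 fell in Ago2 ADH, 2 in Ago2 null and 2 in Dicer KO. Slc2a12 (GLUT12) was at 16.1, 14.8 and 15.0 CPM in Ago2 fl/fl, 4.69, 5.39 and 3.77 in Ago2 ADH and 6.13 and 6.59 in Ago2 null, and went from 13.2, 10.4 and 9.96 to 3.38, 4.44 and 4.60 in Dicer KO. All mutant libraries lay below all controls, with log2 fold changes of -1.68 (SE 0.127), -1.24 (SE 0.119) and -1.44 (SE 0.178). Slc2a1 (GLUT1) was at 55.7, 60.0 and 61.9 CPM in Ago2 fl/fl and 63.6, 64.1 and 62.8 in Ago2 ADH, 0.15 on the log2 scale (adjusted p = 0.051), and rose from 43.5, 46.3 and 51.3 to 57.9, 63.1 and 67.6 in Dicer KO (0.42, adjusted p = 0.000482). Slc45a3, the most abundant member, fell by 0.28 in Ago2 ADH (SE 0.056, adjusted p = 0.000422) and by 0.21 in Dicer KO (SE 0.0577, adjusted p = 0.0053), and was at -0.16 (adjusted p = 0.0383) in Ago2 null. The endoplasmic reticulum sugar phosphate carrier Slc37a2 rose from means under 1 CPM by 1.71, 2.05 and 2.56.

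Slc5a12 belongs to this group by family but carries lactate and other monocarboxylates with sodium. It was at 13.8, 12.7 and 12.0 CPM in Ago2 fl/fl, 1.86, 1.79 and 2.73 in Ago2 ADH and 2.11 and 2.69 in Ago2 null. In Dicer WT it was at 16.1, 16.5 and 19.5 CPM and in Dicer KO at 7.77, 6.68 and 5.25. It was lower in every mutant library, by 2.56 (SE 0.157), 2.39 (SE 0.155) and 1.41 (SE 0.154) on the log2 scale. The monocarboxylate carriers proper, Slc16, had 10 members, of which 2 rose and 2 fell in each Ago2 mutant and 1 rose and 2 fell in Dicer KO. Slc16a12 (chr19:34668401-34747493), which carries creatine, was at 3.31, 3.09 and 3.01 CPM in Ago2 fl/fl, 0.164, 0.238 and 0.208 in Ago2 ADH and 0.214 and 0.362 in Ago2 null, and at 3.31, 6.17 and 4.10 in Dicer WT against 0.650, 0.320 and 0.628 in Dicer KO. The log2 fold changes were -3.89 (SE 0.293, adjusted p = 2.18e-09), -3.41 (SE 0.322, adjusted p = 2.03e-07) and -3.07 (SE 0.332, adjusted p = 4.12e-07).

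Slc16a1 (MCT1), which carries lactate and pyruvate, rose from 12.1, 12.5 and 13.1 CPM to 23.0, 20.9 and 22.8 in Ago2 ADH and 19.5 and 21.7 in Ago2 null, and was at 26.4, 20.4 and 18.7 in Dicer WT and 21.3, 29.5 and 28.9 in Dicer KO, which overlap. The log2 fold changes were 0.87 (adjusted p = 2.20e-07), 0.74 (adjusted p = 1.49e-05) and 0.28 (adjusted p = 0.0992), and its Ago2 ADH effect exceeded its Dicer KO effect by 0.54, which had an adjusted p of 0.0581. Slc16a7 (MCT2), the pyruvate carrier of higher affinity, was at 1.35 to 1.91 CPM in Ago2 fl/fl and passed no test. Slc16a10, a carrier of aromatic amino acids and the most abundant of the family, had log2 fold changes between -0.17 and 0.07 and passed no test.

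Of 19 proton, bicarbonate and anion exchangers of the Slc4, Slc9 and Slc26 families 2 rose and 5 fell in Ago2 ADH, 5 rose and 5 fell in Ago2 null, and 3 rose and 5 fell in Dicer KO. Slc4a10, a sodium-bicarbonate carrier, was at 6.70, 5.97 and 5.41 CPM in Ago2 fl/fl, 0.821, 0.786 and 0.879 in Ago2 ADH and 1.18 and 0.838 in Ago2 null, and at 4.68, 4.26 and 5.60 in Dicer WT against 1.66, 0.960 and 0.856 in Dicer KO. Its log2 fold changes were -2.82 (SE 0.192), -2.54 (SE 0.222) and -2.07 (SE 0.275). The sodium-bicarbonate cotransporter Slc4a7 was at 61.5, 58.1 and 52.5 CPM in Ago2 fl/fl, 38.8, 34.9 and 39.2 in Ago2 ADH and 32.7 and 32.8 in Ago2 null. It fell from 73.5, 62.5 and 67.0 to 44.0, 44.4 and 45.0 CPM in Dicer KO. No libraries overlapped, and the falls were 0.56, 0.78 and 0.61 on the log2 scale. Slc4a5, another sodium-bicarbonate carrier, fell by 0.56, 0.61 and 0.62 and the chloride carrier Slc26a9 by 0.71, 1.07 and 0.65, both named after their values were seen. The anion exchanger Slc4a2 had log2 fold changes of 0.15, 0.46 and 0.23 and passed the test in Ago2 null alone (adjusted p = 0.00968). Slc9b1, the most abundant of the group per kilobase, was at 0.08, 0.26 and 0.03, also past the test in Ago2 null alone (adjusted p = 0.00779). Whether these null effects differ from the Dicer KO effects was not tested.

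Carriers of nucleosides, lipids and organic ions had several large increases. Of 4 nucleoside carriers 2 rose in Ago2 ADH, 1 in Ago2 null and 1 in Dicer KO, and none fell. Slc28a1 (CNT1), which takes up pyrimidine nucleosides with sodium, was at 5.17, 4.67 and 4.08 CPM in Ago2 fl/fl, 32.1, 35.9 and 26.6 in Ago2 ADH and 30.5 and 30.3 in Ago2 null. In Dicer WT it was at 3.23, 3.48 and 3.50 CPM and in Dicer KO at 23.7, 24.1 and 26.9. All mutant libraries were far above the controls, with log2 fold changes of 2.81 (SE 0.119), 2.74 (SE 0.114) and 2.87 (SE 0.133), while Slc29a3, the most abundant of the group, had log2 fold changes between -0.07 and -0.00 and passed no test. The summed level of the group was 19.4 ± 0.118 CPM in Ago2 fl/fl, 47.9 ± 4.75 in Ago2 ADH, 45.8 ± 0.849 in Ago2 null, 20.05 ± 1.13 in Dicer WT and 43.1 ± 1.92 in Dicer KO. Most of its rise in each mutant came from Slc28a1.

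Of 10 lipid, choline and bile acid carriers 5 rose and 1 fell in Ago2 ADH, 4 rose and 2 fell in Ago2 null, and 5 rose and none fell in Dicer KO. The fatty acid carrier Slc27a1 rose from 0.999, 0.776 and 1.45 CPM to 3.32, 4.44 and 5.34 in Ago2 ADH and 3.68 and 3.94 in Ago2 null, and from 1.16, 0.971 and 1.74 to 8.06, 6.72 and 7.79 in Dicer KO, log2 fold changes of 2.07, 1.86 and 2.53. The choline carrier Slc44a2 was at 145, 134 and 141 CPM in Ago2 fl/fl with log2 fold changes between 0.01 and 0.14, and passed no test. Of 11 organic ion carriers 2 rose and 2 fell in each Ago2 mutant, and 4 rose and 1 fell in Dicer KO. Slc22a14, of the organic cation family, was at 1.14, 0.810 and 0.686 CPM in Ago2 fl/fl, 10.8, 10.8 and 11.7 in Ago2 ADH, 10.8 and 8.57 in Ago2 null, 1.94, 0.846 and 0.954 in Dicer WT and 5.46, 5.76 and 5.68 in Dicer KO. It was higher in every mutant library, by 3.70 (SE 0.175), 3.49 (SE 0.212) and 2.18 (SE 0.281) on the log2 scale.

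Slc22a22, which carries prostaglandins, had the largest fall in Ago2 ADH. It was at 3.75, 2.58 and 2.38 CPM in Ago2 fl/fl, 0.0912, 0.110 and 0.347 in Ago2 ADH, 0.0536 and 0.838 in Ago2 null, 3.70, 3.88 and 4.24 in Dicer WT and 0.585, 0.533 and 0.714 in Dicer KO. The Ago2 null libraries were far apart and both below the controls. Its log2 fold changes were -4.00 (SE 0.395, adjusted p = 9.38e-08), -2.69 (SE 0.540, adjusted p = 0.000578) and -2.68 (SE 0.282, adjusted p = 2.86e-07), and in Ago2 null DESeq2 gave an adjusted p of 0.0471, which misses the 1% level. The organic cation carrier Slc22a3 fell by 1.01 in Ago2 ADH (adjusted p = 0.00263) and 1.29 in Ago2 null (adjusted p = 0.000392), and was at -0.88 (adjusted p = 0.0118) in Dicer KO. The carnitine carrier Slc22a5 had log2 fold changes between -0.10 and -0.02 and passed no test.

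The Slc35 family, which brings nucleotide sugars into the Golgi and endoplasmic reticulum, had 22 members, of which 6 rose and 4 fell in Ago2 ADH, 6 rose and 3 fell in Ago2 null, and 5 rose and 3 fell in Dicer KO. Slc35f4, whose substrate is not established, rose from 1.31, 1.47 and 1.66 CPM to 16.0, 16.8 and 15.9 in Ago2 ADH and 17.2 and 16.6 in Ago2 null, and from 2.33, 1.44 and 1.05 to 13.98, 14.1 and 13.2 in Dicer KO. The mutant libraries were tightly grouped and far above the controls, with log2 fold changes of 3.51 (SE 0.134), 3.55 (SE 0.148) and 3.10 (SE 0.224). Slc35a4, the most abundant of the family per kilobase, fell by 0.44, 0.62 and 0.72. Among 7 phosphate, sulfate and organic anion carriers 1 rose and 1 fell in Ago2 ADH, and 2 rose and none fell in Ago2 null and in Dicer KO. Slc17a5 (sialin), which carries sialic acid out of lysosomes, was at 5.97, 6.44 and 4.90 CPM in Ago2 fl/fl, 28.4, 35.7 and 31.7 in Ago2 ADH and 27.4 and 34.2 in Ago2 null, and at 5.92, 5.50 and 4.36 in Dicer WT against 31.8, 34.6 and 37.0 in Dicer KO. Its log2 fold changes were 2.51 (SE 0.113), 2.45 (SE 0.127) and 2.71 (SE 0.129). The phosphate carrier Slc20a1 fell by 0.50 in Ago2 ADH (adjusted p = 3.14e-05) and was at -0.25 in both Ago2 null (adjusted p = 0.0298) and Dicer KO (adjusted p = 0.039).

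Of 7 peptide, urea and vesicular carriers 2 rose and 2 fell in Ago2 ADH, 3 rose and 2 fell in Ago2 null, and 3 rose and 3 fell in Dicer KO. The peptide carrier Slc15a1 (PEPT1) rose from 0.947, 0.388 and 0.667 CPM to 3.45, 4.13 and 3.38 in Ago2 ADH and 4.66 and 4.21 in Ago2 null, and from 2.22, 1.27 and 2.15 to 5.11, 5.30 and 7.91 in Dicer KO, log2 fold changes of 2.50, 2.76 and 1.70. Its relative Slc15a2 (PEPT2) rose by 1.37, 1.37 and 2.04, and Slc18a2, the vesicular monoamine carrier, fell by 1.02, 1.13 and 1.35, both named after their values were seen. Slc18a2 was at 46.4, 44.9 and 42.7 CPM in Ago2 fl/fl, 20.7, 21.4 and 21.8 in Ago2 ADH, 19.98 and 20.004 in Ago2 null, 51.2, 49.8 and 52.4 in Dicer WT and 20.8, 20.9 and 18.4 in Dicer KO, with no overlap. Slc18b1, a vesicular polyamine carrier, fell in Dicer KO by 1.41 (SE 0.329, adjusted p = 0.00168), a call lost without Dicer WT replicate 1 (-1.18, adjusted p = 0.0172), and was at -0.02 in Ago2 ADH. Slc15a4, the most abundant of the group per kilobase, had log2 fold changes between -0.10 and -0.02 and passed no test.

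Of 8 vitamin and cofactor carriers 3 rose and 2 fell in each of the 3 comparisons. Slc23a2, which imports ascorbate, was at 223, 208 and 220 CPM in Ago2 fl/fl, 139, 158 and 140 in Ago2 ADH and 145 and 142 in Ago2 null, and at 293, 281 and 316 in Dicer WT against 246, 223 and 194 in Dicer KO. The groups did not overlap, and the falls were 0.53, 0.56 and 0.43 on the log2 scale. The thiamine carrier Slc19a3 rose by 1.33 in Ago2 ADH (adjusted p = 0.000278) and 1.31 in Dicer KO (adjusted p = 0.00162), and was at 0.67 (adjusted p = 0.0931) in Ago2 null. Slc33a1, which brings acetyl-CoA into the endoplasmic reticulum, fell by 0.98, 0.83 and 0.86, was named after its values were seen, and shares 32.0% of its exon bases with a gene on the other strand. The summed level of the group was 267 ± 8.78 CPM in Ago2 fl/fl, 195 ± 11.8 in Ago2 ADH, 198 ± 0.0762 in Ago2 null, 332 ± 18.9 in Dicer WT and 261 ± 23.7 in Dicer KO, most of it from Slc23a2.

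Of 6 iron, copper and magnesium carriers 3 rose and 2 fell in Ago2 ADH, 2 rose and 2 fell in Ago2 null, and 1 rose and 2 fell in Dicer KO. The magnesium carrier Slc41a1 was at 16.1, 17.2 and 16.9 CPM in Ago2 fl/fl, 5.93, 5.56 and 7.35 in Ago2 ADH and 7.04 and 6.48 in Ago2 null, and at 16.0, 19.6 and 19.7 in Dicer WT against 7.38, 6.11 and 5.88 in Dicer KO. It was lower in every mutant library, by 1.37, 1.28 and 1.52 on the log2 scale. The copper carrier Slc31a2 rose by 0.47, 0.34 and 0.69. Of 7 cation-chloride cotransporters 1 rose in each Ago2 mutant, and 2 rose and 1 fell in Dicer KO. Slc12a8 was the riser in all 3, from 8.40, 8.60 and 8.31 CPM to 24.6, 29.3 and 26.1 in Ago2 ADH and 29.2 and 28.5 in Ago2 null, and from 6.31, 6.25 and 8.03 to 24.2, 26.1 and 23.5 in Dicer KO, log2 fold changes of 1.71, 1.80 and 1.83. Slc12a2 (NKCC1) was at -0.50 in Dicer KO with an adjusted p of 0.013 and passed no test. Of 3 potassium-dependent sodium-calcium exchangers, Slc24, 1 fell in each Ago2 mutant and 3 in Dicer KO. Slc24a5 fell by 0.62, 0.63 and 0.42 and shares 39.5% of its exon bases with Myef2, and Slc24a3 fell in Dicer KO by 0.54 (adjusted p = 0.000501) and was at -0.22 (adjusted p = 0.0264) and -0.27 (adjusted p = 0.0263) in the Ago2 mutants. Slc49a4, the member in no group, rose in Dicer KO by 0.75 (adjusted p = 0.00358) and was at -0.33 (adjusted p = 0.112) in Ago2 ADH, and the difference of these effects had an adjusted p of 0.0119.

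The Ago2 ADH and Dicer KO comparisons share no libraries. Of the 54 members higher in Ago2 ADH, 36 (66.7%) were higher in Dicer KO, which is 64.3% of the 56 higher there. Of the 37 lower in Ago2 ADH, 23 (62.2%) were lower in Dicer KO, which is 67.6% of the 34 lower there. Over genes at 1 CPM or more the shared increases were 60.7% of those in Ago2 ADH and 74.99% of those in Dicer KO, and the shared decreases 66.3% and 75.3%. The members' share of the Ago2 ADH increases was thus above that of other expressed genes, and their other shares were below. None of the 54 members higher in Ago2 ADH was lower in Dicer KO. Of the 37 lower in Ago2 ADH 2 were higher in Dicer KO, Slc7a14 among them. Over genes at 1 CPM or more these discordant calls numbered 10 of 2632 (0.380%) and 35 of 2643 (1.32%). Over the 199 members tested in both, the log2 fold changes had Spearman's rho 0.754 and Pearson's r 0.848, a description across genes, which are not independent replicates. Slc7a3 is among the 199 though it had no count in Ago2 fl/fl, so its Ago2 ADH fold change is not a measured ratio. Its weight in Pearson's r was not tested. The Ago2 null comparison uses the Ago2 fl/fl libraries of the Ago2 ADH comparison, so their likeness is not counted.

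**Figure D4:**
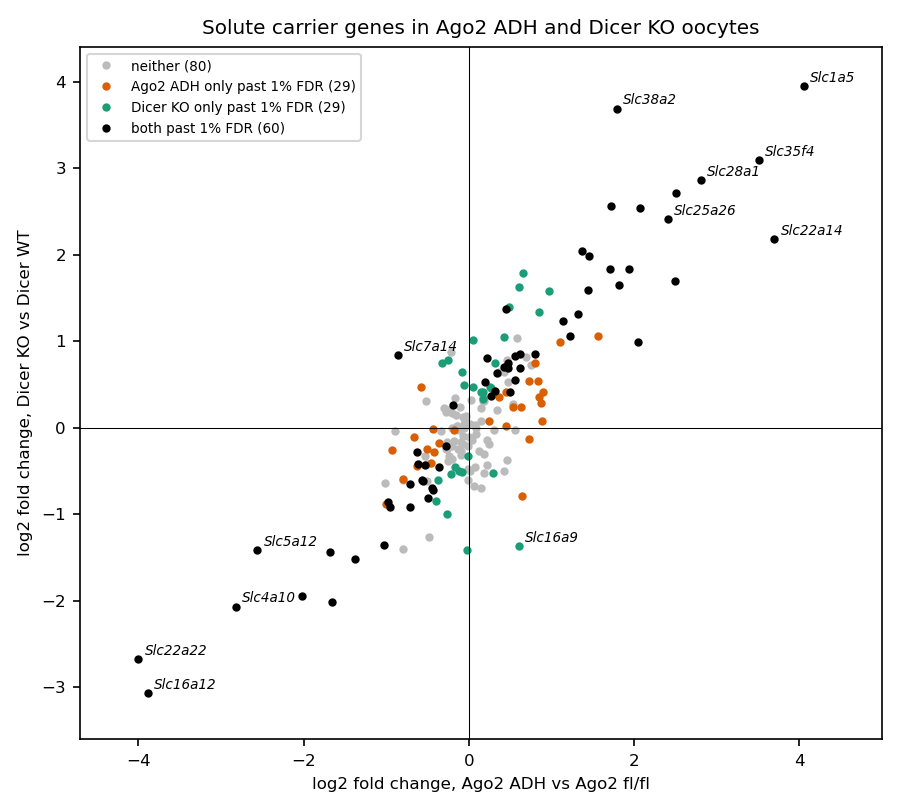
Log2 fold change of each carrier in Ago2 ADH against Ago2 fl/fl oocytes (horizontal) and in Dicer KO against Dicer WT oocytes (vertical), coloured by the comparisons in which it passed a false discovery rate of 1%. Slc7a3, with no count in Ago2 fl/fl, and Slc6a14, not tested in Dicer, are left out. Most genes called in both lie along the rising diagonal, and Slc7a14 lies in the upper left.

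Between Ago2 ADH and Ago2 null oocytes no member passed the 1% level in either direction by edgeR's quasi-likelihood test, against 0.119% of all transcripts tested (0.0673% higher, 0.0518% lower) and 0.148% of genes at 1 CPM or more (0.0870% higher, 0.0609% lower). At an unadjusted p under 0.05 there were 26 members of 200, against 10.9% of genes at 1 CPM or more. The smallest adjusted p was 0.0198, of Slc66a2, at 2.97, 2.54 and 2.84 CPM in Ago2 ADH and 5.31 and 5.89 in Ago2 null (log2 fold change -1.01, SE 0.185). It was below in every Ago2 ADH library, and DESeq2 (adjusted p = 0.00125) and edgeR without a filter on low counts (adjusted p = 0.00151) called it. With the replicate number as a block 3 members were called lower in Ago2 ADH, Slc66a2 (adjusted p = 0.00118), Slc16a6 (adjusted p = 4.26e-05) and Slc6a15 (adjusted p = 0.0049), though the numbers did not pair the libraries. Slc66a2 was also higher in Ago2 null than in Ago2 fl/fl, by 0.98 (adjusted p = 0.000186), and was at -0.01 in Ago2 ADH. These 3 genes were named after their values were seen.

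The Ago2 ADH and Dicer KO effects were compared directly as an interaction. Of 200 members tested 13 differed at a false discovery rate of 1%, 4 with a higher log2 fold change in Ago2 ADH and 9 with a lower one, or 6.5%. Of all transcripts tested 3.55% differed (1.20% higher, 2.35% lower), and of genes at 1 CPM or more 4.59% (1.56% higher, 3.03% lower). The number higher was 2 without Ago2 fl/fl replicate 2 or 3, Ago2 ADH replicate 3, Dicer WT replicate 3 or Dicer KO replicate 1 or 2, and 7 without Dicer KO replicate 3. The number lower was 6 to 10 when 1 library was left out. Slc7a14 (chr3:31202854-31310567), a lysosomal member of the cationic amino acid family, differed most clearly. It was at 43.2, 46.2 and 45.2 CPM in Ago2 fl/fl, 22.0, 26.0 and 23.8 in Ago2 ADH, 22.4 and 27.9 in Ago2 null, 25.0, 25.7 and 21.5 in Dicer WT and 50.2, 37.8 and 41.1 in Dicer KO. It was lower in both Ago2 mutants and higher in Dicer KO without overlap, with log2 fold changes of -0.86 (SE 0.0757), -0.80 (SE 0.0937) and 0.84 (SE 0.108), and a difference of -1.75 (SE 0.139, adjusted p = 8.79e-09). The Dicer WT values lay near those of the Ago2 mutants and the Dicer KO values near those of Ago2 fl/fl, so the control groups themselves were apart.

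Other genes with a lower effect in Ago2 ADH rose more, or fell less, in Dicer KO. Slc7a2, the abundant arginine and lysine carrier, was at 215, 219 and 231 CPM in Ago2 fl/fl, 249, 257 and 241 in Ago2 ADH, 234 and 267 in Ago2 null, 211, 225 and 214 in Dicer WT and 408, 392 and 336 in Dicer KO. Its rise of 0.21 in Ago2 ADH and 0.80 in Dicer KO gave a difference of -0.64 (SE 0.087, adjusted p = 3.79e-05). Slc6a9 (GLYT1), the glycine carrier, was at 124, 115 and 119 CPM in Ago2 fl/fl, 134, 138 and 125 in Ago2 ADH, 141 and 121 in Ago2 null, 95.4, 96.1 and 107 in Dicer WT and 147, 144 and 138 in Dicer KO. Its log2 fold changes were 0.19 (adjusted p = 0.00494), 0.16 (adjusted p = 0.0629) and 0.52 (adjusted p = 2.83e-06). The difference of -0.38 (adjusted p = 0.0054) lost its call under RLE normalisation (adjusted p = 0.0121) and without any of 8 of the 12 libraries (adjusted p up to 0.0221), and 27.8% of the exon bases of Slc6a9 are shared with B4galt2 and Ccdc24 on the other strand. Slc25a5, described above, differed by -0.47, Slc12a9 by -0.77, the mitochondrial glycine carrier Slc25a38 by -0.59 and the folate carrier Slc19a1 by -0.98. Slc12a9 and Slc25a38 rose in Dicer KO, by 0.64 and 0.49, and were at -0.08 and -0.05 in Ago2 ADH. Slc5a12 fell in both, by more in Ago2 ADH than in Dicer KO, a difference of -1.20 (SE 0.228, adjusted p = 0.00158). Control levels were apart for some of these genes. Slc12a9 was at 24.3, 23.3 and 21.1 CPM in Ago2 fl/fl and 16.5, 16.8 and 16.4 in Dicer WT. Slc25a38 was at 18.2, 19.2 and 19.0 against 10.6, 10.5 and 11.8, and Slc19a1 at 6.46, 5.67 and 5.11 against 2.51, 2.24 and 3.15. The part of the control levels in the differences was not tested.

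The 4 genes with a higher effect in Ago2 ADH were low in level. Slc22a14 differed by 1.47 (SE 0.337, adjusted p = 0.00733) and Slc6a14 by 5.91 (SE 1.24, adjusted p = 0.00362). The Dicer side of the Slc6a14 difference rests on 6 counts in Dicer WT and 4 in Dicer KO, and without Dicer WT replicate 3 it was 4.15 with an adjusted p of 0.260. Slc6a14 entered the set only through the Ago2 mutants, so its difference is a description, though the 4 genes include it. Slc9a8, an intracellular sodium-proton exchanger, was at 2.89, 2.45 and 2.76 CPM in Ago2 fl/fl and 4.03, 3.65 and 4.56 in Ago2 ADH, and at 3.70, 3.71 and 3.74 in Dicer WT and 1.63, 2.45 and 2.40 in Dicer KO. Its difference of 1.38 (adjusted p = 0.0031) lost its call without Ago2 fl/fl replicate 2, Ago2 ADH replicate 3 or Dicer KO replicate 1. Slc16a9, a carnitine carrier, was at 0.499, 1.05 and 0.610 CPM in Ago2 fl/fl and 1.495, 0.932 and 0.740 in Ago2 ADH, which overlap, and fell from 4.32, 5.55 and 5.10 to 2.18, 1.71 and 1.91 in Dicer KO. Its difference of 1.93 (adjusted p = 0.00466) lost its call with the replicate number as a block and without Ago2 fl/fl replicate 1 or 3, Ago2 ADH replicate 1, Dicer WT replicate 2 or 3 or Dicer KO replicate 2 (adjusted p up to 0.0286).

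**Figure D5:**
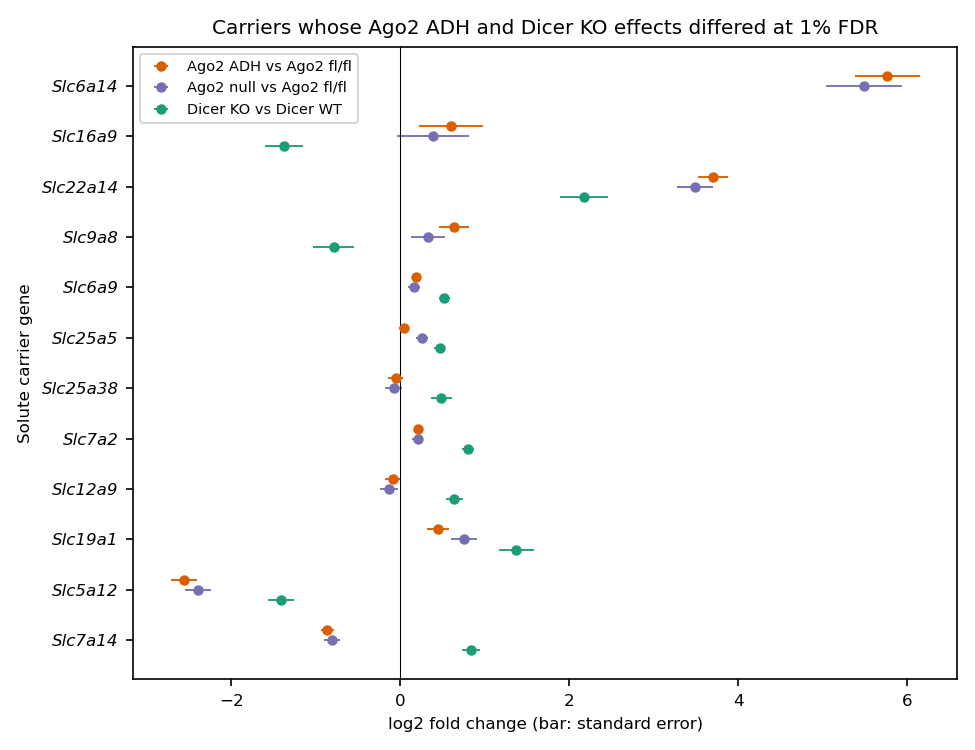
Log2 fold change with its standard error in Ago2 ADH (orange), Ago2 null (violet) and Dicer KO (green), each against its own control, for 12 carriers whose Ago2 ADH and Dicer KO effects differed. For Slc7a14 both Ago2 points lie left of 0 and the Dicer KO point right of it, and Slc6a14 has no green point because it was not tested in the Dicer comparison.

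Genes that work with carriers were taken from a list of sodium pump subunits, carrier chaperones, mitochondrial channels and regulatory kinases. Of 24 listed 22 were found and 21 tested, of which 3 rose and 7 fell in Ago2 ADH, 3 rose and 5 fell in Ago2 null, and 3 rose and 6 fell in Dicer KO. Beside these stand 45.9%, 43.2% and 38.7% of genes at 1 CPM or more called in either direction. Sgk1, a kinase known to raise carrier abundance at the surface, was at 18.7, 18.8 and 19.6 CPM in Ago2 fl/fl, 37.6, 37.0 and 39.5 in Ago2 ADH, 40.6 and 40.9 in Ago2 null, 19.9, 20.7 and 21.0 in Dicer WT and 45.2, 41.7 and 48.6 in Dicer KO. Nedd4l, a ubiquitin ligase known to remove carriers and inhibited by SGK1, was at 150, 144 and 134 CPM in Ago2 fl/fl, 58.9, 56.8 and 47.1 in Ago2 ADH, 44.0 and 49.1 in Ago2 null, 126, 138 and 131 in Dicer WT and 38.1, 40.0 and 35.0 in Dicer KO. Sgk1 was higher and Nedd4l lower in every mutant library, with log2 fold changes of 1.05, 1.13 and 1.14 and of -1.35, -1.59 and -1.81. Atp1b1, a sodium pump subunit, fell by 0.57, 0.60 and 0.41, the gap junction protein gene Gja4, which couples oocyte and cumulus cells, by 0.32, 0.25 and 0.38, Nptn, a chaperone of monocarboxylate carriers, by 0.39, 0.38 and 0.35, and the chloride-sensing kinase gene Wnk1 by 0.38, 0.55 and 0.32. These 6 passed the test in the same direction in all 3 comparisons.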

How the data were processed

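RNA-seq was analysed in 14 libraries of 20 GV-intact oocytes, grouped by the genotype in the sample labels. The deposited values are raw read counts per RefSeq transcript, which the authors made by aligning paired-end reads to mm10 and refGene with TopHat, with options set by read length, keeping up to 100 alignments per read, and counting with htseq-count without regard to strand. The submitters' processing notes name TopHat2 2.0.7, HTSeq 0.6.1 and DESeq 1.10.0, and the study's methods another TopHat version. The tally of alignments that were not unique (0.458 to 1.61 per counted read by group) and 4 other tallies naming no gene were left out of library sizes. Reads that fitted near-identical or overlapping genes alike may have gone to these tallies, so such genes may lack reads. RefSeq and GENCODE paired 26081 and 113 IDs with symbols, and 301 had none.

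Each comparison was fitted on its own libraries with edgeR 4.0.16 (R 4.3.3): filterByExpr, TMM, glmQLFTest, Benjamini-Hochberg adjustment over all transcripts, calls at 1%. A standard error is the log2 fold change over the square root of F. The script was checked on simulated data. Alternatives were DESeq2 1.42.0, RLE normalisation, no filter, 1 transcript per gene, all groups in one fit, a replicate block, each library left out, an FDR of 5% and other member levels. Tables and figures were made with Python 3.11.15, pandas 2.3.3 and matplotlib 3.10.9.

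The members, functional groups and other lists were chosen with earlier results of these data known. Functional groups follow the Slc family number. Genes named are the 10 most abundant members, 5 on each side of the level, the 8 largest called increases and decreases without overlap in each mutant, up to 10 called by smallest p in the other comparisons, the most abundant and most changed member of each group, carriers with a known role in oocytes, and partner genes called in all mutants; others are said to be named after their values were seen. The depth of 29380403 to 58285057 counts puts 3 counts, the floor used, at 0.0515 to 0.102 CPM, a floor that covers counting error only, the cDNA having been amplified and read without identifiers of single molecules. Replicate libraries differed by more than sampling noise (chi-square 6.54 to 14.9 per degree of freedom). The results of some members are not reported here, and the counts include them.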

Additional observations from a re-analysis of the deposited data

Results flagged for a closer look

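The log2 fold changes of 12 carriers described here differed between Ago2 ADH and Dicer KO oocytes by the test of the interaction at 1%. The difference, Ago2 ADH minus Dicer KO, was -1.75 for Slc7a14, -0.64 for Slc7a2, -0.77 for Slc12a9, -0.47 for Slc25a5, -1.20 for Slc5a12, -0.38 for Slc6a9, -0.59 for Slc25a38 and -0.98 for Slc19a1. It was 1.38 for Slc9a8, 5.91 for Slc6a14, 1.93 for Slc16a9 and 1.47 for Slc22a14. Slc7a14 was called in opposite directions in the Ago2 ADH and Dicer KO comparisons. For several of these carriers, Slc7a14 and Slc19a1 among them, the control groups were themselves apart. Slc6a14 entered the set only through the Ago2 mutants, where it was high.

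Alignments that were not unique, which no carrier count uses, were more frequent in mutant libraries. They numbered 1.61 per counted read in Ago2 ADH, 1.61 in Ago2 null and 1.03 in Dicer KO, against 0.572 in Ago2 fl/fl and 0.458 in Dicer WT. Their part in the changes of carriers was not tested.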

How the results depend on the processing

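The replicate numbers did not pair the libraries: deviations of same-numbered libraries correlated at 0.0202 to 0.0397 for Ago2 ADH, -0.0702 and -0.0438 for Ago2 null, -0.157 to 0.0377 for Dicer KO, and 0.0576 and 0.0203 between the Ago2 mutants. With the number as a block, members higher and lower were 55 and 37 in Ago2 ADH, 41 and 29 in Ago2 null, 51 and 28 in Dicer KO, 0 and 3 between Ago2 ADH and Ago2 null (Slc66a2, Slc16a6 and Slc6a15), and 4 and 7 in the interaction. With members at a mean of 5 CPM or more, 33 were higher in Ago2 ADH, 35 in Dicer KO and 1 in the interaction. At an FDR of 5%, 52 were lower in Dicer KO, 1 lower in Ago2 ADH than in Ago2 null, and 10 higher and 22 lower in the interaction. DESeq2 called 1 member lower in Ago2 ADH than in Ago2 null and 8 higher and 14 lower in the interaction, and edgeR with no filter on low counts called 1 lower between the Ago2 mutants. Leaving out 1 library at a time gave 43 to 49 higher and 32 to 38 lower in Ago2 ADH, 33 to 44 and 27 to 30 in Ago2 null, 43 to 49 and 28 to 34 in Dicer KO, 0 and 0 between the Ago2 mutants, and 2 to 7 and 6 to 10 in the interaction. The count of 33 higher came without Ago2 null replicate 2, that of 7 without Dicer KO replicate 3, and that of 2 without Ago2 fl/fl replicate 2 or 3, Ago2 ADH replicate 3, Dicer WT replicate 3 or Dicer KO replicate 1 or 2. Of the named members, 740 alternatives were run over 58 pairs of gene and comparison. The sign changed in 0, and 23 lost the call, in 6 pairs: Slc22a22 in Ago2 null, Slc18b1 in Dicer KO, and Slc9a8, Slc6a14, Slc16a9 and Slc6a9 in the interaction. The cause was not tested. Depth limits members near the floor of 3 counts, and 2 Ago2 null libraries limit that comparison.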
